A study of Mus musculus with 127 samples.

Results

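The genes described here encode the channels through which calcium leaves the endoplasmic reticulum: the ryanodine receptors Ryr1, Ryr2 and Ryr3 and the inositol trisphosphate (IP3) receptors Itpr1, Itpr2 and Itpr3. These 6 genes were selected by name from the 54838 gene rows of the count tables, and all 6 had counts in every library. The family was chosen because Ryr1 had stood out between Chd8 genotypes in the germline nuclear libraries, so the values of all members in that comparison, and in any that is built on it, are given as a description only. The other comparisons were tested, although those of germline synaptic with nuclear RNA use nuclear libraries of that comparison.

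Poly(A) RNA of cerebral cortex from mice about 60 days old was sequenced, either from whole tissue or from cell fractions. In the germline line, mice heterozygous for a Chd8 deletion (Chd8+/–, given as Chd8+/5bpdel in the protocol, called HET) were compared with wild-type littermates (WT). Whole cortex came from 15 WT and 16 HET, the nuclear fraction from 12 WT and 9 HET, the synaptic fraction (synaptosomes) from 11 WT and 7 HET, and the cytosolic fraction from 5 WT and 7 HET. In the conditional line, fractions came from mice titled Camk2a-CRE Chd8+/+ (WT, 4 nuclear and 4 synaptic libraries), Camk2a-CRE Chd8+/flox (HET, 6 and 5) and Camk2a-CRE Chd8flox/flox (HOM, 3 and 5). Camk2a drives Cre in excitatory forebrain neurons, so other cells of these mice keep Chd8, and by title all animals of the conditional fractions carry Cre, WT included. Conditional whole cortex instead compared 8 Chd8+/flox mice without Cre with 6 Camk2a-CRE Chd8+/flox mice, so Cre and loss of the allele cannot be told apart there. Chd8 encodes a chromatin remodeller, and the comparisons ask how its loss changes RNA levels in tissue and in each compartment.

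Ryanodine receptors open in response to calcium itself and amplify a calcium signal, while IP3 receptors open when phospholipase C, acting below Gq-coupled receptors, produces IP3. In forebrain neurons both kinds shape calcium signals in dendrites, axon terminals and the nucleus. Ryr1 is best known as the release channel of skeletal muscle, Ryr2 as that of heart muscle and brain, and Ryr3 as a channel expressed at low levels in many tissues, brain included. Itpr1 is the main neuronal IP3 receptor, Itpr2 is prominent in astrocytes, and Itpr3 in epithelial and secretory cells.

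Sequencing depth, as mega-counts (M) per library, was lowest in germline cortex (19 to 30.5 M) and highest in conditional cortex (98.1 to 134.6 M). The germline fractions held 23.2 to 50.7 M (nuclear), 26.6 to 48.0 M (synaptic) and 32.9 to 56.6 M (cytosolic), and the conditional fractions 24.4 to 53.8 M (nuclear) and 31 to 56.2 M (synaptic). The lowest member count was 17, for Itpr3 in a cytosolic library. Chd8 itself was lower in HET whole cortex (log2 fold change -0.58, SE 0.08, edgeR quasi-likelihood adjusted p = 6.2e-05), at 41.7 to 81.3 CPM (counts-per-million) against 65.95 to 111.8 in WT, and at -0.57 within batch label CHD80456 alone, where it did not pass (adjusted p = 1.0). In nuclear RNA it did not pass the test (log2 fold change -0.01, SE 0.06, adjusted p = 0.99), so that fraction does not check the labels. In the synaptic fraction it did not pass with all libraries (-0.82, SE 0.19, adjusted p = 0.32), but was called without the 2 libraries named next (-0.67, SE 0.07, adjusted p = 6.3e-05), with no filter on low counts (adjusted p = 1.3e-05) and by DESeq2 (adjusted p = 0.032). In the cytosolic fraction (-0.43, SE 0.08), conditional cortex (-0.52, SE 0.20) and the conditional HOM fractions (-0.47, SE 0.16 in nuclei and -0.57, SE 0.20 in synaptosomes) it did not pass after adjustment, although DESeq2 called it in cytosol (adjusted p = 0.031) and the fit with no filter in HOM synaptosomes (adjusted p = 0.00021). In the conditional HET fractions Chd8 was at -0.06 (SE 0.13, unadjusted p = 0.68) in nuclei and -0.21 (SE 0.19, unadjusted p = 0.30) in synaptosomes, so it checks the HET label in neither. Synaptic WT male replicates 1 and 2 stood apart with summed CPM of 31600 and 33130 for 8 RNAs retained in nuclei (Malat1, Neat1, Meg3, Rian, Miat, Kcnq1ot1, Snhg11 and Mirg), against 481.6 to 3340 in the other 16 germline synaptic libraries and 20630 to 33280 in the nuclear ones. The sex markers of nuclear WT male replicate 7 and nuclear HET female replicate 4 went against their labels. The conditional animal labelled HET male replicate 1 in both fractions had 0 Cre counts, and 1 further animal carried the HET label for its nuclei but the HOM label for its synaptosomes. The members' fold changes without these libraries are given beside those with them where they differ in call or clearly in size. Summed CPM of 7 skeletal muscle markers stayed between 5.68 and 49.8 in all libraries, with Tnnc2 at 0 in several groups, against 3416 to 9960 for 7 excitatory neuron markers.

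The 6 genes lie on the mouse GRCm38 assembly as follows. Ryr1 (ENSMUSG00000030592) spans chromosome 7, 29003344 to 29125179, on the minus strand. Ryr2 (ENSMUSG00000021313) spans chromosome 13, 11553102 to 12106945, on the minus strand, and Ryr3 (ENSMUSG00000057378) spans chromosome 2, 112631355 to 113217096, also on the minus strand. Itpr1 (ENSMUSG00000030102) and Itpr2 (ENSMUSG00000030287) share chromosome 6, at 108213096 to 108551109 on the plus strand and at 146108299 to 146502223 on the minus strand. Itpr3 (ENSMUSG00000042644) spans chromosome 17, 27057304 to 27122223, on the plus strand. Counts were summed over all annotated exons, and those exons include models that code for no protein, such as retained introns. Of the exon bases, 46.02% in Itpr1, 36.56% in Ryr2, 29.27% in Ryr1, 19.63% in Itpr2, 17.36% in Ryr3 and 0.32% in Itpr3 belonged only to such models. Exons of Aven, an apoptosis inhibitor gene on the opposite strand, overlap Ryr3, and antisense genes overlap exons of Ryr1 (Gm26604), Itpr1 (Gm44040) and Itpr3 (Itpr3os). Where strand was not used in counting, reads of such pairs cannot be told apart. Total counts over all libraries were 41802 for Aven against 148754 for Ryr3, and 1131 for Gm26604 against 121173 for Ryr1.

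Itpr1 was by far the most abundant member in whole cortex. Per kilobase (kb) of exon, its level over 31 germline cortex libraries was 38.4 ± 5.05 CPM per kb (mean ± SD), followed by Ryr2 at 7.37 ± 1.88, Itpr2 at 1.76 ± 0.313, Ryr3 at 1.40 ± 0.561, Ryr1 at 0.966 ± 0.426 and Itpr3 at 0.807 ± 0.241. The ranges of Itpr1 and Ryr2 overlapped neither each other nor that of Itpr2, while the 4 lower members overlapped their neighbours in this order. Itpr2 was above Ryr3 in 26 of 31 libraries, Ryr3 above Ryr1 in 29, and Ryr1 above Itpr3 in 22. Itpr1 made up 93.6% ± 1.76 of the IP3 receptor sum per kb, and Ryr2 made up 76.2% ± 4.54 of the ryanodine receptor sum. The exon length used here includes the models that code for no protein.

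The order of the lower members differed between fractions. In the 21 germline nuclear libraries Itpr1 made up 50.2% of the sum over all 6 members, against 75.75% in whole cortex and 74.97% in the synaptic fraction. The nuclear order below Itpr1 and Ryr2 was Ryr3 at 3.06 ± 0.999 CPM per kb, Ryr1 at 2.66 ± 0.572, Itpr2 at 2.03 ± 0.295 and Itpr3 at 1.98 ± 0.763. These neighbours overlapped, and Itpr2 exceeded Itpr3 in 11 of 21 libraries. In the 18 synaptic libraries Itpr2 came next after Ryr2, at 1.73 ± 0.224, above Ryr3 in 16 libraries, and Itpr3 came last at 0.337 ± 0.366. These values and the synaptic share of Itpr1 include WT male replicates 1 and 2, which had a nuclear profile. These had 9.90 and 13.6 CPM of Itpr3 and 123.6 and 141.7 CPM of Ryr3, which raised the means. Mean and median CPM in synaptic WT were 3.59 and 2.19 for Itpr3, and 35.0 and 13.1 for Ryr3. In the 12 cytosolic libraries Itpr3 was lowest at 0.112 ± 0.0469 CPM per kb, with no overlap with Ryr1, the next member up. Cytosolic and conditional fractions were sequenced on another instrument than the other germline libraries, so that for cytosol the fraction and the instrument cannot be told apart. Levels set across separate tables are descriptive.

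The same order held for the leading members in the conditional line. Itpr1 made up 84.2% of the family sum in conditional cortex, 50.4% in conditional nuclear and 74.5% in conditional synaptic libraries, and Ryr2 8.59%, 31.1% and 19.5%. Itpr3 stood lower in conditional nuclei (0.659 ± 0.262 CPM per kb, n = 13) than the 1.98 in germline nuclei, whose range of 1.08 to 4.03 overlapped the conditional range of 0.287 to 1.17. Mean CPM per kb was lower in conditional than in germline whole cortex for each member, for example 0.386 ± 0.118 against 0.966 for Ryr1 and 34.6 against 38.4 for Itpr1. The 2 cortex experiments differ in line, depth and processing, so these differences were not tested.

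**Figure D1:**
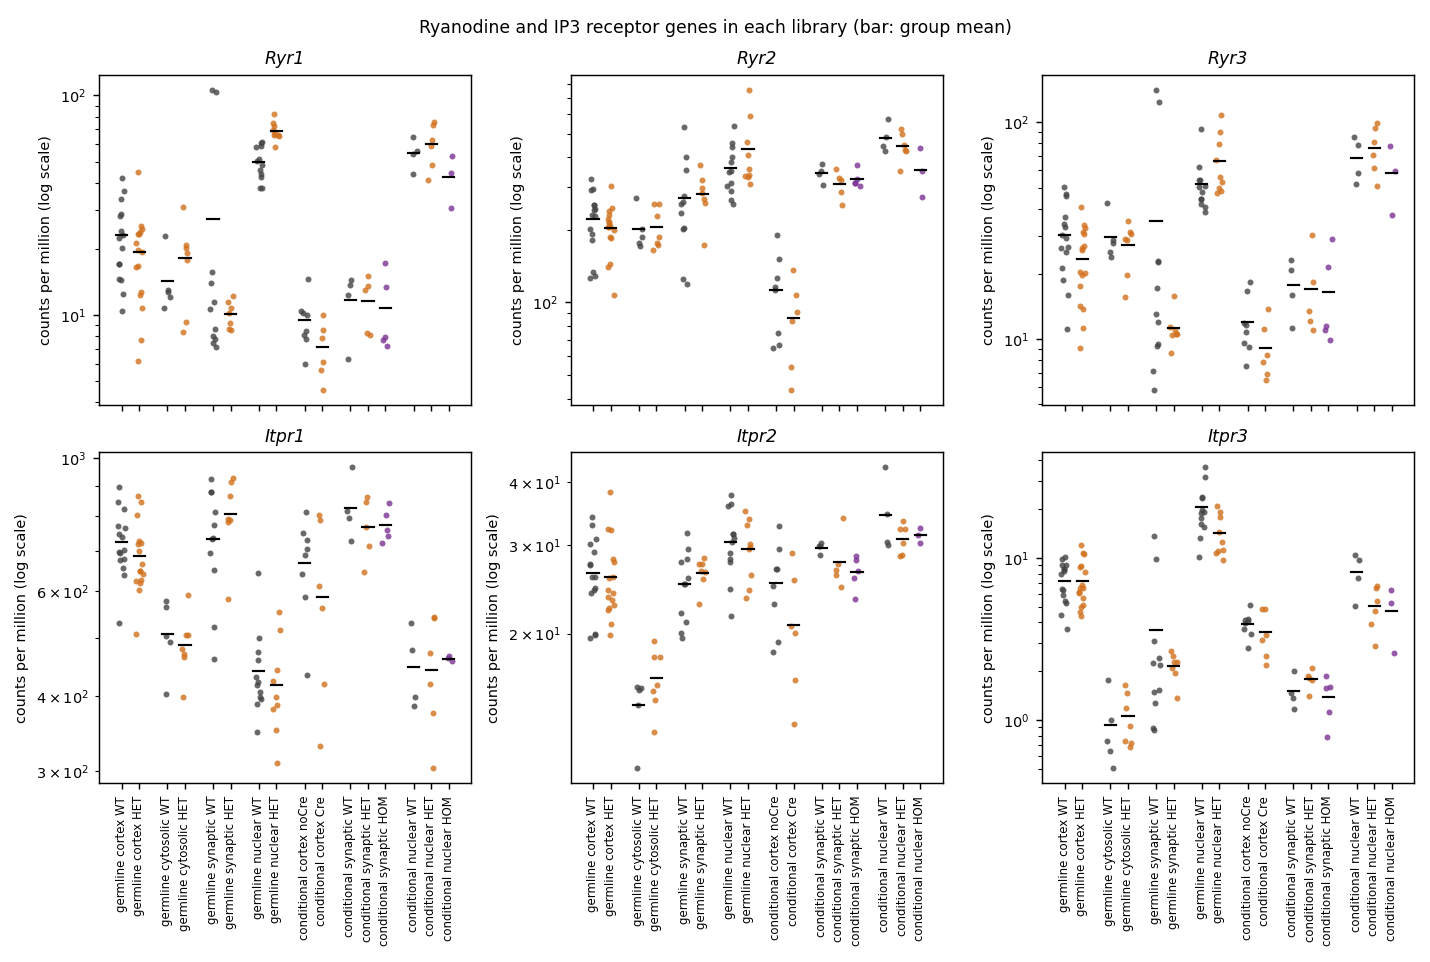
CPM (log scale) of each member in each of 123 libraries, grouped by line, fraction and genotype, with 1 point per library and a bar at the group mean. Most nuclear libraries lie above the synaptic ones for Ryr1, Ryr3 and Itpr3 and below them for Itpr1, while 2 germline synaptic WT libraries reach 103 and 106 CPM of Ryr1.

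Comparing synaptic with nuclear RNA of the same animals asked how the transcripts are divided between the fractions relative to other RNAs. The fractions also differed in RNA of vascular cells: summed CPM of 6 endothelial markers had a median of 1099 in nuclear and 19.2 in synaptic germline WT libraries, and 621 and 25.8 in conditional WT, and 6 mural markers had 562 and 41.4, and 339 and 40.9. Location in the cell and the cells that a fraction holds cannot be told apart in this comparison. Ryr1, Ryr3 and Itpr3 were lower and Itpr1 higher in the synaptic fraction in all 5 genotype groups. The fits had animal as a block and covered 15 germline animals (10 WT, 5 HET) and 12 conditional ones (4 WT, 5 HET, 3 HOM). The germline fits draw on nuclear libraries of the contrast that chose the genes. Their p-values for the members are therefore not independent of that choice. The conditional fits hold none of those libraries. In every group 5 of the 6 members passed an adjusted p of 0.05, but this comparison called most genes: 64.5% of 21515 genes in germline WT, 62.9% in germline HET, 61.5% of 21577 in conditional WT, 60.6% in conditional HET and 48.0% in conditional HOM. The count of 5 of 6 is to be read against that background, and in the germline groups only as a description. The direction and size of each change carry more. Fold changes from scaling by the trimmed mean of M values (TMM) are relative to a median over all genes of -0.14, -0.19, -0.15, -0.14 and -0.11 in the same order of groups. Scaling by total counts alone moved these medians to -0.64, -0.79, -0.71, -0.70 and -0.63.

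Ryr1 RNA was lower in synaptic than nuclear libraries by a log2 fold change of -1.20 (SE 0.31, adjusted p = 0.0028) in germline WT, -2.20 (SE 0.42, adjusted p = 0.00029) in germline HET, -1.71 (SE 0.17, adjusted p = 7.6e-08) in conditional WT, -1.75 (SE 0.16, adjusted p = 9.3e-09) in conditional HET and -1.68 (SE 0.20, adjusted p = 1.4e-06) in conditional HOM. In conditional WT the 4 synaptic libraries had 14.35, 6.28, 13.7 and 12.3 CPM against 55.8, 44.0, 53.9 and 64.4 CPM in the nuclei of the same animals. In the 3 conditional HOM animals the synaptic values were 13.4, 7.67 and 7.22 CPM against 53.1, 30.6 and 44.5 CPM. No synaptic library of these animals overlapped the nuclear ones. In germline HET the 7 synaptic libraries ran from 8.56 to 12.2 CPM (median 10.2) and the 9 nuclear ones from 58.4 to 82.4 (median 66.8), again without overlap. Per animal, the log2 ratio of CPM was negative in 25 of 27 animals; the other 2 are the germline animals whose synaptic libraries carried the nuclear profile, with ratios of 0.83 and 0.80. Without those 2 animals and a further pair that differed in sex markers, germline WT gave -1.81 (adjusted p = 4e-09), while with no animal block and all libraries it gave -0.71 and did not pass (adjusted p = 0.096). Without the animal of 0 Cre counts, conditional HET gave -1.91. The germline p-values of Ryr1 rest on nuclear levels that chose the family, so they are a description and not evidence.

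Ryr3 followed the same pattern, with log2 fold changes of -0.95 (SE 0.39, adjusted p = 0.041) in germline WT, -1.95 (SE 0.52) in germline HET, -1.39 (SE 0.17) in conditional WT, -1.59 (SE 0.15) in conditional HET and -1.32 (SE 0.19) in conditional HOM, the last 4 with adjusted p of 0.0037 or lower. Synaptic levels in conditional WT were 16.0, 11.3, 20.9 and 23.2 CPM and nuclear levels 51.7, 58.1, 79.0 and 85.8 CPM, with no overlap. Germline WT again held the exceptions: Ryr3 reached 123.6 and 141.7 CPM in synaptic WT male replicates 1 and 2, above all 12 nuclear WT libraries (38.5 to 93.1 CPM) and far above the other 9 synaptic ones (5.80 to 23.04 CPM). Without the 3 doubtful animals the germline WT value was -1.69 (adjusted p = 1.2e-06), and without the animal of 0 Cre counts the conditional HET value was -1.73. With all animals the germline WT call ended when 1 of 8 animals was left out, by nuclear replicate WT females 1 to 5, WT males 5 and 6 and HET female 3 (adjusted p from 0.051 to 0.11), and also with no animal block (-0.45, adjusted p = 0.31) and with no filter on low counts (adjusted p = 0.13).

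Ryr2 had no direction that held across groups and scalings. By TMM its log2 fold change was -0.03 (SE 0.20), -0.09 (SE 0.27), 0.09 (SE 0.12) and 0.07 (SE 0.10) in germline WT, germline HET, conditional WT and conditional HET, none of which passed the test. In conditional HOM it was higher in the synaptic fraction by TMM (0.47, SE 0.14, adjusted p = 0.0073), but the sign turned by total counts (-0.05). That call was lost without HOM female replicate 1 (0.30, adjusted p = 0.14) or HOM male replicate 1 (0.39, adjusted p = 0.072). By total counts conditional WT and HET gave -0.48 and -0.49, which passed in the opposite direction to TMM. Germline WT and HET gave -0.54 and -0.69 by total counts. Over all 21 alternatives Ryr2 was called in 1 for germline WT and in 0 for germline HET. Without the 3 doubtful animals the TMM value in germline WT was -0.38 (adjusted p = 0.056). Median CPM was 347.9 in nuclear and 255.6 in synaptic germline WT libraries, and 463.7 and 345.1 in the conditional WT ones.

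Itpr1 RNA was higher in the synaptic fraction in all 27 animals, including the 2 with a nuclear profile (log2 ratios 0.25 and 0.36). The log2 fold change was 1.22 (SE 0.14) in germline WT, 1.54 (SE 0.19) in germline HET, 1.46 (SE 0.12) in conditional WT, 1.34 (SE 0.11) in conditional HET and 1.29 (SE 0.14) in conditional HOM, each with adjusted p of 1.2e-05 or lower, and 1.42 in germline WT without the 3 doubtful animals and 1.39 in conditional HET without the animal of 0 Cre counts. These values placed Itpr1 between the percentiles 95.5 and 96.8 of all genes tested. In conditional WT the synaptic levels were 966, 728, 816 and 795 CPM against 477.1, 399, 529 and 386 CPM in nuclei, and in conditional HOM they were 842, 723 and 803 CPM against 457, 462.5 and 467 CPM. The groups did not overlap in either genotype. The direction held by total counts (0.71 to 0.94 in the 5 groups).

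Itpr2 differed little between the fractions. By TMM it was higher in synaptic RNA by 0.25 (SE 0.09, adjusted p = 0.018), 0.42 (SE 0.12, adjusted p = 0.0064), 0.37 (SE 0.11, adjusted p = 0.0069) and 0.38 (SE 0.10, adjusted p = 0.0022) in the germline WT, germline HET, conditional WT and conditional HET animals, but by total counts the sign turned to -0.26, -0.18, -0.20 and -0.18. The conditional WT call was lost without WT female replicate 2 (0.30, adjusted p = 0.055), and the germline WT call with no animal block (0.25, adjusted p = 0.066), without the animal of nuclear WT female replicate 3 (0.21, adjusted p = 0.051) or with no filter on low counts (0.26, adjusted p = 0.059). In conditional HOM the TMM value of 0.24 (SE 0.13, adjusted p = 0.12) did not pass. CPM ranges overlapped, with 19.6 to 31.7 CPM in synaptic and 21.7 to 37.6 CPM in nuclear germline WT libraries. Per animal, CPM of Itpr2 was lower in synaptic RNA in 8 of 10, 4 of 5, 4 of 4, 4 of 5 and 3 of 3 animals of the 5 groups, with median log2 ratios of -0.29 to -0.11. The median of 12284 genes at or above 1 CPM had ratios of -0.39 to -0.32 in the same animals, so that Itpr2 was lower by less than the median gene.

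Itpr3 was lower in the synaptic fraction in all 27 animals. The log2 fold change was -2.60 (SE 0.32) in germline WT, -2.19 (SE 0.43) in germline HET, -1.85 (SE 0.29) in conditional WT, -0.96 (SE 0.25) in conditional HET and -1.27 (SE 0.34) in conditional HOM, with adjusted p of 0.0037 or lower in each. Without the 3 doubtful germline animals the WT value was -3.23, and without the animal of 0 Cre counts the conditional HET value was -0.82 (adjusted p = 0.015). The endothelial and mural markers named above were likewise lower in the synaptic fraction, and their part in the value of Itpr3 was not tested. In conditional WT the synaptic levels were 1.16, 1.47, 1.37 and 2.02 CPM against 10.5, 9.70, 5.02 and 7.53 CPM in nuclei, with no overlap. In conditional HOM they were 1.602, 1.575 and 0.789 CPM against 6.33, 2.58 and 5.25 CPM, which do not overlap either, and leaving out HOM male replicate 2 gave -0.88 (adjusted p = 0.072). The difference between conditional genotypes in this compartment effect was 0.88 for HET (SE 0.38, unadjusted p = 0.029, adjusted p = 1.0; 1.02 without the animal of 0 Cre counts) and 0.58 for HOM (SE 0.44, adjusted p = 0.90), so it was not called.

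**Figure D2:**
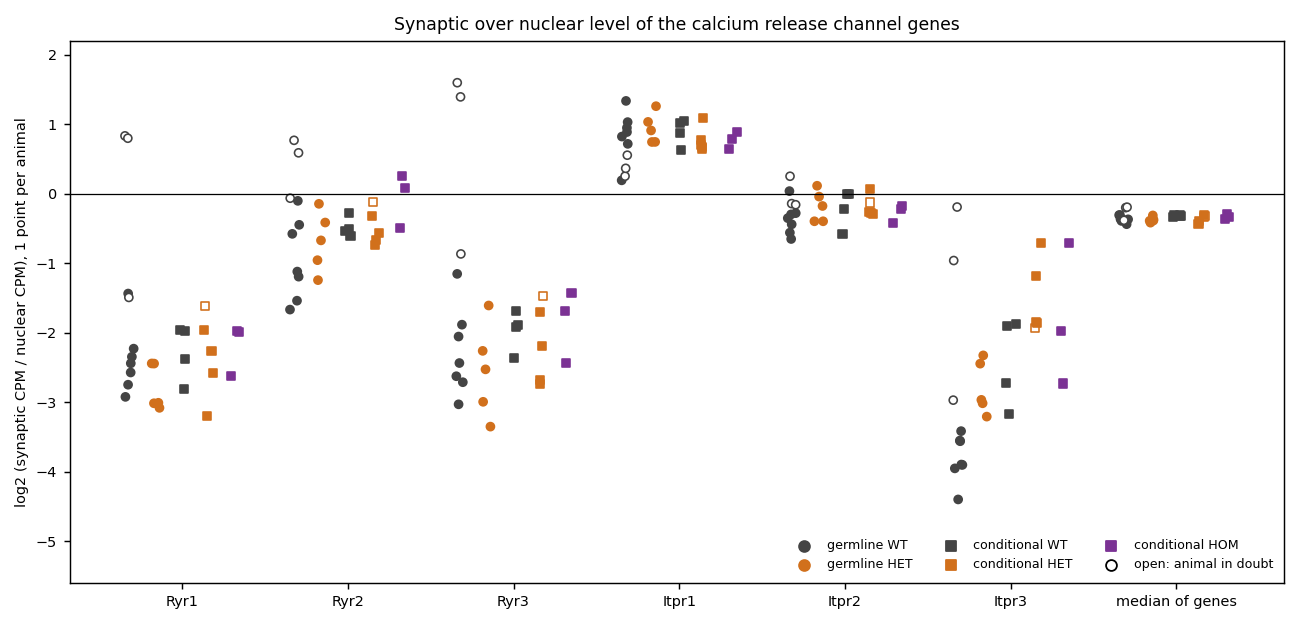
Log2 ratio of synaptic to nuclear CPM of each member, with 1 point per animal with both fractions (27 animals), and of the median of 12284 genes. Open points are 3 germline animals and 1 conditional animal in doubt; Itpr1 lies above 0 and Itpr3 below 0 in all 27 animals, and the small offsets of Itpr2, and of Ryr2 in the conditional groups, turn sign under TMM scaling.

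The interaction of compartment with genotype called no member in the conditional line (0.0% of 21577 genes called for HET and for HOM). Unadjusted p under 0.05 was reached by 623 genes for HET and 1040 for HOM, and DESeq2 called 0 in both. Among the members Ryr2 had the lowest unadjusted p for HOM (difference 0.38, SE 0.18, unadjusted p = 0.045, adjusted p = 0.90). In the germline line, where the interaction uses the nuclear contrast that chose the genes, the differences were -0.999 for Ryr1, -1.005 for Ryr3 and 0.407 for Itpr3 as a description, and -0.39, -0.26 and 1.03 without the 3 doubtful animals (0.0% of 21515 genes called, 1540 at unadjusted p under 0.05, 0 by DESeq2).

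The genes that signal to or surround these channels were read in 9 lists with 120 genes in all. By TMM, 29.3% of all genes were called higher and 35.2% lower in synaptic RNA of germline WT, and 28.6% and 32.9% in conditional WT. By total counts these shares were 9.66% and 54.2%, and 11% and 53.8%. In germline HET, conditional HET and conditional HOM they were 26.8% and 36.1%, 27.9% and 32.7%, and 22.9% and 25.1% by TMM. The total-count shares there were 9.91% and 53.4%, 10.7% and 57.3%, and 8.53% and 46.7%. Of the 115 listed genes tested in germline WT, 59 were higher and 23 lower by TMM (median 0.37 against -0.14 over all genes), but 23 were higher and 45 lower by total counts (median -0.14 against -0.64). In conditional WT the counts were 62 higher and 18 lower of 117 by TMM (median 0.48 against -0.15), and 34 and 43 by total counts (median -0.09 against -0.71). The median of the listed genes together thus lay above that of all genes tested under both scalings, while the balance of calls turned with the scaling. By total counts the list of other release channels lay below it in germline WT (-0.87 against -0.64). The 12284 genes at or above 1 CPM in every nuclear and synaptic library lay nearer to the listed genes by total counts. Their median log2 ratios of CPM per animal were -0.36 in germline WT and -0.32 in conditional WT. Without the 3 doubtful animals 64 were higher and 23 lower in germline WT by TMM (33% and 41.3% of all genes), and without the animal of 0 Cre counts 62 and 16 of 117 in conditional HET, against 64 and 18 with it.

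Gq-coupled receptors, which start IP3 production, were higher in 11 or 12 of the 12 or 13 tested in each of the 5 groups by TMM and lower in 0, with medians of 1.08 to 1.54. By total counts 6 of 12 were higher and 1 lower in germline WT, and 10 to 12 were higher and 0 lower in the other 4 groups, with medians of 0.57 to 0.97. Among them were the serotonin receptors Htr2a (1.84, SE 0.12, by TMM) and Htr2c (1.59, SE 0.11) in conditional WT. Store-operated entry, the refilling of the reticulum by STIM sensors and ORAI or TRPC channels, was higher in 6 to 10 of 11 genes and lower in 0 by TMM, with medians of 0.65 to 1.13. By total counts 3 were higher and 4 lower in germline WT and 6 and 2 in germline HET, against 5 to 7 higher and 0 lower in the conditional groups. Its examples by TMM were Orai2 (0.91, SE 0.09) in germline WT, the sensor Stim2 (1.40, SE 0.10) in conditional WT and the channel Trpc5 (2.22, SE 0.19) in conditional HOM.

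Below the receptors, Plcb1, a phospholipase C that makes IP3, and Gnaq, the G protein subunit that activates it, were higher in synaptic RNA of germline WT by 1.47 (SE 0.14) and 0.97 (SE 0.11) under TMM. Over all 15 genes of IP3 production, 6 were higher and 2 lower in germline WT by TMM, and 2 and 6 by total counts. Pumps and luminal store proteins were split under both scalings, with 4 higher and 5 lower of 11 by TMM and 2 and 5 by total counts, and with a median of 0.04 by TMM that was -0.75 without the 3 doubtful animals. Atp2a3, a reticulum calcium pump, and Casq2, a luminal calcium buffer, were lower in germline WT by log2 fold changes of -3.30 (SE 0.28) and -2.79 (SE 0.31), and Atp2a3 was lower in the other 4 groups too (-3.21 to -2.05). The chaperone Hspa5, which binds calcium in the lumen, was higher in conditional WT (1.58, SE 0.12). Ryanodine receptor partners were higher in 14 and lower in 2 of 23 in germline WT by TMM, and 7 and 7 by total counts. IP3 receptor partners were higher in 8 and lower in 5 of 19 by TMM, and 2 and 10 by total counts, and Itpripl2 was lower in all 5 groups by TMM (-1.61 to -0.87). By TMM, genes of IP3 removal were higher in 3 and lower in 2 of 8 in germline WT, those of other release channels and their messengers in 3 and 3 of 8, and those of mitochondrial calcium uptake in 4 and 4 of 8 (4 and 1 without the 3 doubtful animals). Letm1, a mitochondrial cation exchanger, was among the higher ones (0.997, SE 0.11), and Pkd2, a polycystin channel of the reticulum and cilium, was lower in germline HET (-0.89, SE 0.18).

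Between genotypes, Ryr1 in germline nuclei was the value that led to this family. The 12 WT libraries ran from 37.8 to 61.2 CPM (median 49.1) and the 9 HET libraries from 58.4 to 82.4 CPM (median 66.8), so that the groups overlapped only between 58.4 and 61.2 CPM. The log2 fold change was 0.51 (SE 0.08), the means 49.65 ± 8.49 and 69.2 ± 6.83 CPM, and this comparison called 0.0151% of 19912 genes. Ryr3 was at 0.37 (SE 0.15), with 38.5 to 93.1 CPM in WT and 46.99 to 107.7 in HET, and Ryr2 at 0.23 (SE 0.15), with 255 to 539 and 309.3 to 761 CPM. Itpr1 was at -0.06 (SE 0.12) and Itpr2 at -0.08 (SE 0.09). Itpr3 was at -0.54 (SE 0.16), with 10.2 to 36.2 CPM in WT and 9.76 to 21.01 CPM in HET, means 20.5 ± 7.37 and 14.2 ± 4.19. Summed CPM of 6 endothelial markers ran from 592 to 1595 in WT and from 472.6 to 1139 in HET, and of 6 mural markers from 324 to 916 and from 320 to 578, with none at 0 in either group; 0 of the 12 were called, and their part in the value of Itpr3 was not tested. The fit used the first number of the batch labels merged into 3 groups; with its 6 levels Ryr1 was at 0.41, Ryr3 at 0.08, Ryr2 at 0.05, Itpr1 at -0.20, Itpr2 at -0.09 and Itpr3 at -0.29. Ryr1 was at 0.50 without the 2 libraries of unclear sex. These values chose the family and are not evidence for a difference. Of the 114 pathway genes tested there, 0 were called.

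In the other genotype comparisons, no member passed an adjusted p of 0.05 under the test as designed. In germline whole cortex, where 0.328% of 17074 genes were called, 0 of 6 members were called. Ryr1 in WT ran from 10.4 to 42.2 CPM (median 22.4) and HET from 6.17 to 44.8 CPM (median 19.6). Its log2 fold change was -0.25 (SE 0.21, 95% interval -0.67 to 0.17, adjusted p = 0.74). Ryr3 was at -0.34 (SE 0.19, adjusted p = 0.60), with a median of 29.2 CPM in WT and 22.99 in HET, and the other 4 members lay between -0.11 and -0.02. Within the 2 batch labels, CHD807 and CHD80456, Ryr1 was at -0.35 and -0.16, Ryr3 at -0.51 and -0.15, and Ryr2 at -0.16 and -0.06, while Itpr3 differed in sign (-0.30 and 0.27), as did Itpr1 (0.01 and -0.15); no member was called in either. Of the 111 pathway genes tested 1 was called, Orai2, an entry channel of the plasma membrane (-0.295, SE 0.07, adjusted p = 0.046), and the median of the pathway genes was 0.01 against -0.001 over all genes. The median of the 8 nuclear-retained RNAs was -0.32 in the same comparison, and their part in the values of Ryr1 and Ryr3 was not tested. In whole tissue, fewer cells of a type and less RNA per cell cannot be told apart.

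In the synaptic fraction of the germline line (0.0% of 17178 genes called, 1877 at unadjusted p under 0.05, 17 by DESeq2), Ryr1 was at -0.08 (SE 0.39), with WT from 7.16 to 106.4 CPM and HET from 8.56 to 12.2 CPM. Ryr3 was at -0.42 (SE 0.47). The sign of both turned with the covariates: with 6 batch levels in place of 3, Ryr1 was at 0.82 and Ryr3 at 0.77, and with genotype alone at -1.16 and -1.37. Itpr3 was at 0.09, and at 1.10 and -0.50 in those fits; no member was called in any of them. Only the 2 WT libraries of nuclear profile exceeded 15.6 CPM of Ryr1. Without them 1.09% of 16862 genes were called, Ryr1 was at 0.20 (SE 0.14, adjusted p = 0.48) and Ryr3 at -0.07 (SE 0.22). Ryr2 was then at 0.30 (SE 0.10, unadjusted p = 0.0078, adjusted p = 0.12) and Itpr3 at 0.43 (SE 0.22, adjusted p = 0.29), opposite in sign to the nuclear value of Itpr3. Of 109 pathway genes, the reticulum pump Atp2a2 (0.35, SE 0.08, adjusted p = 0.043) and Erlin2, which takes part in degrading activated IP3 receptors (0.29, SE 0.07, adjusted p = 0.043), were higher in HET and the phospholipase C gene Plcd1 was lower (-0.44, SE 0.09, adjusted p = 0.033). None of these 3 was called with all libraries. With all libraries, the median of the nuclear-retained RNAs was -0.81 (0 of 8 called).

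In the cytosolic fraction (0.0% of 18454 genes called, 587 at unadjusted p under 0.05, 4 by DESeq2), the 5 WT libraries had 10.8, 12.7, 12.1, 22.95 and 12.96 CPM of Ryr1. The 7 HET libraries ran from 8.32 to 31.1 CPM with a median of 19.1. The groups overlapped, and the log2 fold change of 0.41 (SE 0.32, 95% interval -0.30 to 1.11) did not pass the test. Leaving out HET male replicate 2 gave 0.04, and leaving out HET male replicate 1 gave 0.65. The median of the nuclear-retained RNAs was 0.28 in the same comparison and its part was not tested. The other 5 members were between -0.11 and 0.13, with adjusted p of 1.0.

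In the conditional nuclear fraction, HET and HOM were compared with the same 4 WT libraries, so the 2 comparisons share their controls (0.0% of 21133 genes called in each; 938 and 2453 at unadjusted p under 0.05; 3 and 27 by DESeq2). Ryr1 was at 0.14 (SE 0.16, 95% interval -0.20 to 0.48) in HET and at -0.22 (SE 0.19, 95% interval -0.63 to 0.18) in HOM. Its levels were 55.8, 44.0, 53.9 and 64.4 CPM in WT, 41.4 to 76.1 CPM (median 60.6) in HET, and 53.1, 30.6 and 44.5 CPM in HOM. The 3 genotypes overlapped. Without the HET animal of 0 Cre counts the HET value was 0.22, and without HOM female replicate 1 the HOM value was 0.11.

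Itpr3 had the lowest p of the members in that fraction. Its levels were 10.5, 9.70, 5.02 and 7.53 CPM in WT, 2.87 to 6.71 CPM (median 5.06) in HET, and 6.33, 2.58 and 5.25 CPM in HOM. Below the lowest WT library lay 3 of 6 HET libraries and 1 of 3 HOM libraries, so the groups overlapped. The log2 fold change was -0.52 in HET (SE 0.20, unadjusted p = 0.022, adjusted p = 0.94) and -0.86 in HOM (SE 0.25, unadjusted p = 0.0027, adjusted p = 0.42). Leaving out 1 library at a time kept the HOM value between -1.02 and -0.67, and with no filter on low counts, a fit that called 0.948% of 36504 genes against 0.0% here, it was called (-0.87, adjusted p = 0.037). The HET value was -0.44 without the animal of 0 Cre counts and -0.49 without that of 2 labels. Ryr2 was at -0.35 in HOM (SE 0.17, unadjusted p = 0.056, adjusted p = 0.44) and at -0.08 in HET. Ryr3, Itpr1 and Itpr2 lay between -0.08 and 0.15 in both. The 6 endothelial markers had a median of -0.50 in HET and -1.05 in HOM, with summed CPM of 336 to 1033 in WT, 228 to 599 in HET and 169.5 to 528 in HOM. The 6 mural markers had medians of -0.27 and -0.41, with summed CPM of 237.5 to 507, 200 to 313 and 172 to 328. None of the 12 was called or at 0 throughout a group, and their part in the values of Itpr3 was not tested.

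In the conditional synaptic fraction (0.0% of 17505 genes called in each comparison; 750 and 836 at unadjusted p under 0.05; 0 and 2 by DESeq2), all members lay between -0.15 and 0.25. Ryr1 had 14.35, 6.28, 13.7 and 12.3 CPM in WT, 15.1, 13.5, 8.05, 8.26 and 12.96 CPM in HET, and 13.4, 7.67, 7.22, 7.90 and 17.3 CPM in HOM. Its log2 fold changes were -0.01 (SE 0.29) and -0.09 (SE 0.29), the former -0.15 without the animal of 0 Cre counts and the latter -0.32 without the animal of 2 labels. Itpr3 was at 0.25 (SE 0.26) in HET and -0.06 (SE 0.26) in HOM, against -0.52 and -0.86 in nuclei.

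In conditional whole cortex, all 6 members were below 0 in mice with Cre, and none passed the test (adjusted p = 0.89 for each; 0.0% of 21798 genes called, 656 at unadjusted p under 0.05, 4 by DESeq2). The log2 fold changes were -0.41 (SE 0.21) for Ryr1, -0.42 (SE 0.31) for Ryr2, -0.40 (SE 0.22) for Ryr3, -0.22 (SE 0.22) for Itpr1, -0.29 (SE 0.20) for Itpr2 and -0.21 (SE 0.20) for Itpr3. For Ryr1 the 8 libraries without Cre ran from 5.97 to 14.6 CPM (median 9.21) and the 6 with Cre from 4.53 to 10.03 CPM (median 6.99). For Itpr1 they ran from 433 to 815 CPM and from 330.0 to 804 CPM, so the groups overlapped for both. The median over all genes was 0.001, that of 2002 genes with at least 8990 exon bases, the length of the shortest member, was -0.16, and that of the nuclear-retained RNAs was -0.67. The part of transcript length and of retained RNA in the members' values was not tested.

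**Figure D3:**
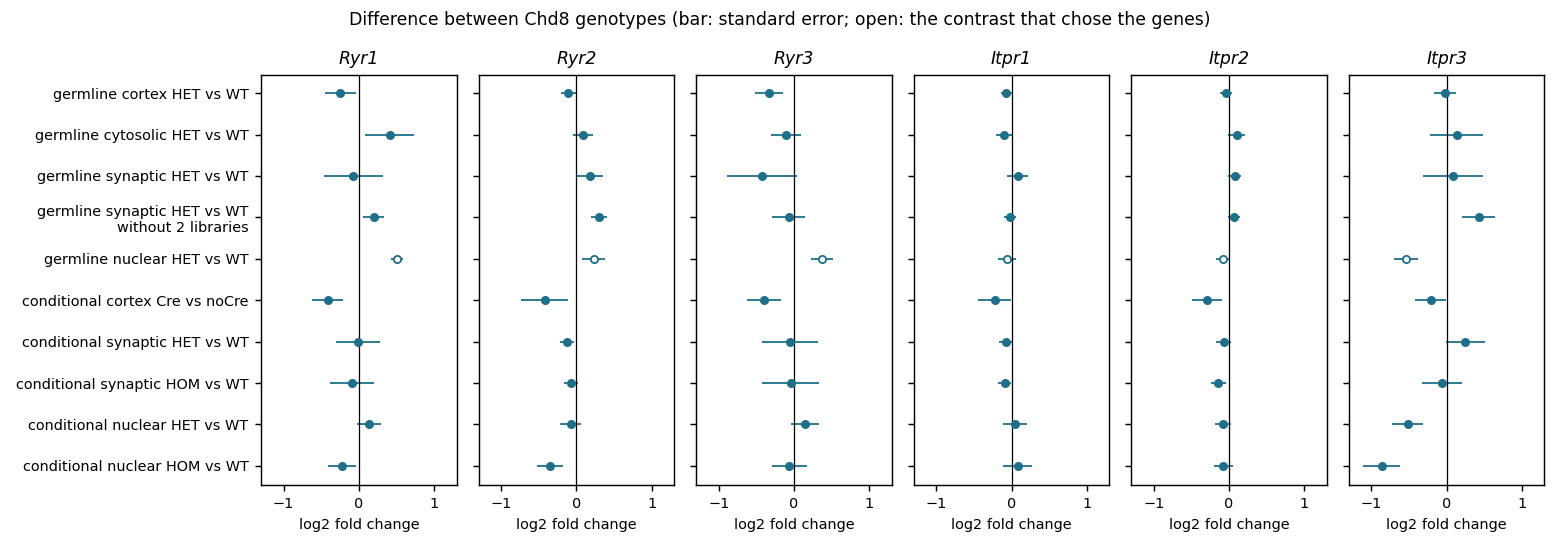
Log2 fold change of each member between Chd8 genotypes in each comparison, with a bar of 1 standard error on each side. Open points mark the germline nuclear contrast that chose the genes; Ryr1 is at 0.51 there and between -0.41 and 0.41 in the others, and Itpr3 is at -0.86 in conditional nuclear HOM.

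Sex, as labelled, called 0.0761% of 17074 genes in germline cortex and no member. DESeq2 called 15 genes there. Male minus female log2 differences ranged from -0.22 for Ryr1 and Ryr3 (SE 0.21 and 0.19) to 0.06 for Itpr1 (SE 0.07).

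Within germline whole cortex the members varied together from library to library, and Itpr1 went the other way. For this, TMM-scaled log2 CPM of each of the 31 libraries was expressed as a deviation from the mean of its sex, batch label and genotype. These relations were chosen after the data had been seen, and 21 were computed. Their p-values come from 100000 permutations within those cells, for which 1e-05 is the smallest value possible. The share of all genes with relations as strong was not computed, so the relations are not shown to be particular to this family. The variation between libraries was large for the low members: the coefficient of variation in WT was 40.7% for Ryr1, 37.9% for Ryr3 and 27.7% for Ryr2, against 12.5% for Itpr1.

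Ryr1 and Ryr3 deviated together (r = 0.85, rho = 0.86, permutation p = 2e-05, adjusted 8.4e-05), as did Ryr2 and Ryr3 (r = 0.79, rho = 0.85, permutation p = 3e-05, adjusted 9e-05). Itpr2 and Itpr3 did so too (r = 0.86, rho = 0.83, permutation p = 4e-05, adjusted 1e-04). Itpr1 was opposed to Ryr1 (r = -0.54, rho = -0.48, permutation p = 0.0055, adjusted 0.0077), with r = -0.50 without the 2 libraries farthest from the median of Ryr1. Within the 2 batch labels (15 and 16 libraries) the Ryr1 and Ryr3 relation was 0.88 and 0.84, while that of Ryr1 and Itpr1 was -0.68 and -0.29. The relation of Itpr1 and Ryr2 did not pass (r = -0.26, rho = -0.31, permutation p = 0.31, adjusted 0.31).

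Each member was also set against the mean of the 8 nuclear-retained RNAs in the same libraries. Ryr1 followed it most closely (r = 0.94, rho = 0.94, permutation p = 1e-05, adjusted 5.2e-05), with r = 0.94 without the 2 libraries farthest from the median of that mean and 0.98 and 0.95 within the batch labels. Itpr3 had r = 0.86 (rho = 0.92), Ryr3 r = 0.85 (rho = 0.86), Itpr2 r = 0.73 (rho = 0.78) and Ryr2 r = 0.57 (rho = 0.73), with adjusted permutation p from 5.2e-05 to 0.009 for r. Without the 2 libraries these were 0.89, 0.81, 0.75 and 0.59. Itpr1 was opposed (r = -0.66, rho = -0.57, permutation p = 0.001, adjusted 0.0017), at -0.49 without the 2 libraries and at -0.71 and -0.45 within the batch labels. Cortex libraries with more nuclear-retained RNA thus had more RNA of 5 members and less of Itpr1. How many of all genes followed the retained RNAs as closely was not computed. Of the members, Ryr1, Ryr3 and Itpr3 were also higher in nuclei than in synaptosomes, Itpr1 was lower there, and the direction of Ryr2 and Itpr2 turned with the scaling.

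As an example, HET female replicate 9 of germline cortex had the lowest summed CPM of the retained RNAs, 779, and the lowest levels of Ryr1 (6.17 CPM) and Ryr3 (9.05 CPM). HET female replicate 2, with 8091 CPM of retained RNAs, had 44.8 CPM of Ryr1 and 40.9 CPM of Ryr3. HET libraries alone thus spanned the whole range of Ryr1 over both genotypes.

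**Figure D4:**
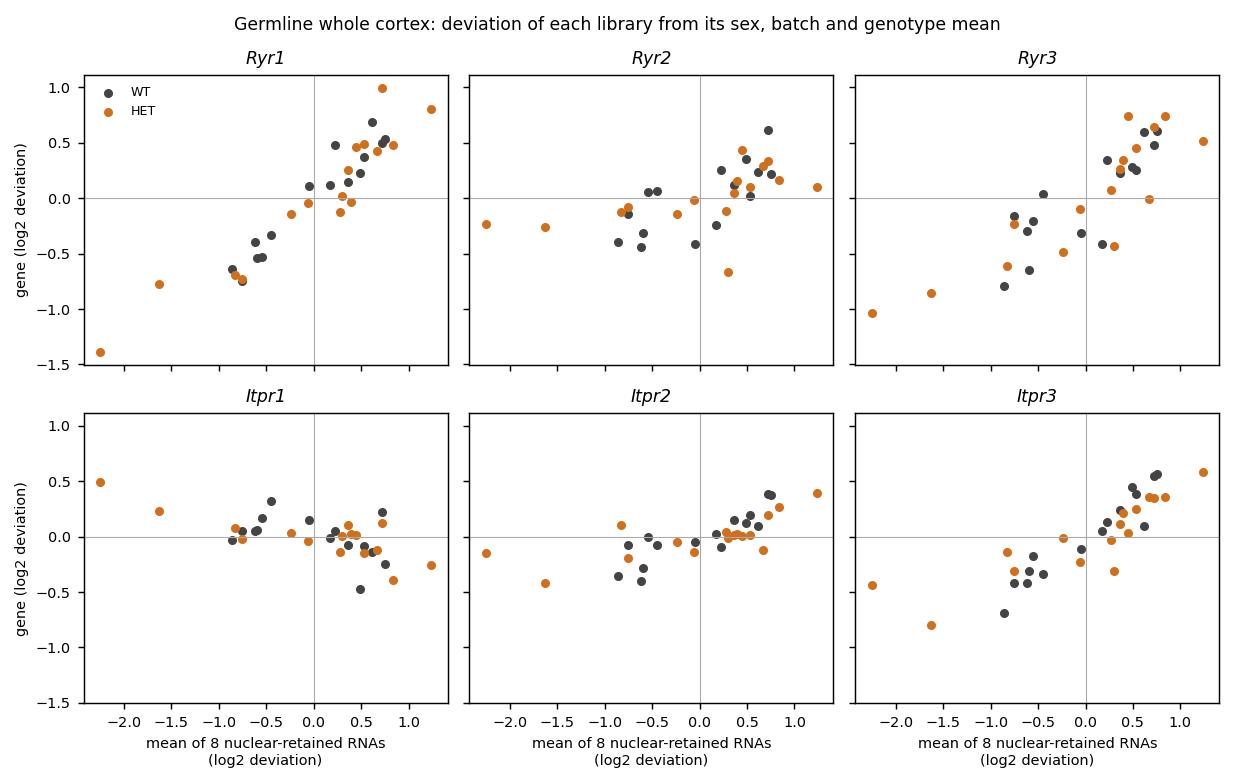
Deviation of each member (TMM-scaled log2 CPM, vertical) against that of the mean of 8 nuclear-retained RNAs (horizontal) in 31 germline cortex libraries, each relative to the mean of its sex, batch label and genotype. Over both genotypes together the points rise for Ryr1 (r = 0.94) and fall for Itpr1 (r = -0.66). Subtracting the genotype means centres WT and HET alike, so their overlap carries no information on genotype.

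The same relation was computed in the other 6 experiments, as deviations from the group means in a family of 36 relations. In the germline cytosolic fraction it held for Ryr1 (r = 0.91, rho = 0.85, permutation p = 0.00079, adjusted 0.028) and Ryr3 (r = 0.84, rho = 0.84, permutation p = 0.0029, adjusted 0.04), and without the 2 farthest libraries r was 0.84 and 0.80. In the conditional synaptic fraction Ryr1 had r = 0.81 (rho = 0.73, adjusted permutation p 0.04 and 0.069) and Ryr3 r = 0.74 (rho = 0.71, adjusted permutation p 0.045 and 0.069), and r was 0.71 and 0.69 without the 2 libraries. In conditional cortex Ryr1 had r = 0.68 but only 0.41 without the 2 libraries, so that relation rests on them. In nuclei Ryr1 had r = 0.02 in the germline and 0.46 in the conditional line, with adjusted permutation p = 0.97 and 0.32. Itpr1 was opposed to the retained RNAs in conditional nuclei (r = -0.69, rho = -0.68, adjusted permutation p 0.045 and 0.079; r = -0.50 without the 2 farthest libraries) and in the germline cytosolic fraction (r = -0.71, rho = -0.80, adjusted permutation p 0.081 and 0.048; r = -0.56 without the 2). In conditional synaptosomes it had r = 0.00 and in conditional cortex 0.21, with adjusted permutation p = 0.99 and 0.58. Itpr1 was below 0 without passing in germline synaptosomes, less the 2 libraries of nuclear profile (r = -0.62, rho = -0.59, adjusted permutation p 0.10 and 0.15). The same held in germline nuclei (r = -0.49, rho = -0.45, adjusted permutation p 0.32 for both). Without the 2 farthest libraries these r were -0.51 and -0.12. Ryr2, Itpr2 and Itpr3 passed in none of these 6 experiments. Germline synaptic libraries, without the 2 of nuclear profile, gave r = 0.55 for Ryr1 (adjusted permutation p = 0.19).

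By Pearson correlation of the same deviations over 31 germline cortex libraries, among 13485 genes, the genes most like each member were as follows. For Ryr1 they were Kcnt1, a sodium-activated potassium channel (r = 0.975), Robo3, an axon guidance receptor (0.969), and Acp6, a lysophosphatidic acid phosphatase (0.966). For Ryr2 they were Vps13c (0.953), Birc6 (0.947) and Nfat5 (0.945). For Ryr3 they were Ago3, an Argonaute protein (0.938), Cpsf6, a subunit of the cleavage factor of pre-mRNA 3′ ends (0.937), and Son, a nuclear speckle protein (0.935). For Itpr1 they were the kinase gene Pdpk1 (0.916), Dpp8 (0.9) and Usp32 (0.895). For Itpr2 they were the phospholipase gene Ddhd1 (0.907), 4930402H24Rik (0.904) and the receptor gene Notch1 (0.901), and for Itpr3 the phosphodiesterase gene Pde7a (0.968), Arnt (0.943) and Cplane1 (0.941). No member was among the 3 nearest genes of another. In the 21 germline nuclear libraries the nearest genes of Ryr1 were different ones, Lmo1 (0.865), Chd5 (0.848) and Klhl2 (0.845), among 14665 genes. All these correlations are descriptions over libraries that share depth and scaling.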

How the data were processed

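Whole cortex and cell fractions of mouse cortex were profiled by RNA-seq, and 123 of 127 labelled libraries were used; the other 4 were not analysed here. The authors deposited raw counts per Ensembl gene, made with STAR 2.5.4b and featureCounts 2.0.0 per the submitters' processing notes. For conditional cortex the file header names featureCounts 1.6.0 and an annotation of Ensembl release 95, and it shows no strand or read-pair option, so mates may count separately; the options for the other tables are not given in the sources used here. The nuclear and synaptic fractions share animals, identified by the animal number in the library names.

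Each table was fitted with edgeR 4.0.16 (limma 3.58.1, R 4.3.3): TMM scaling, filterByExpr by group, robust quasi-likelihood F tests and Benjamini-Hochberg adjustment over all genes tested, with a threshold of 0.05. The robust option was added to the planned design. Covariates were sex and, for germline cortex, the batch label; for germline nuclear and synaptic libraries, the first number of the batch label, merged into 3 groups (its 6 levels unmerged were an alternative). Comparisons of fractions had animal as a block, and the animal of 2 labels was left out of them. CPM values are counts over library totals, and CPM per kb divides by the union of exons. Only the deviations used for correlations were taken from TMM-scaled log2 CPM. Outside the members and Chd8, pathway genes were named where called with the smallest p, at most 4 each way, and neighbours as the 3 highest correlations. The members and all gene lists were chosen with earlier results of these data known. Gene models were read from the GRCm38 annotation. The code was tested on simulated counts. Alternatives were DESeq2 1.42.0, other scalings, no low-count filter, other covariates and batch levels, and leaving out libraries. Same replicate numbers in 2 groups were not taken as pairs. A gene that the naming rule selected is not reported here.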

Additional observations from a re-analysis of the deposited data

Results flagged for a closer look

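Of 66 sets of 4 to 10 libraries of 1 group and 1 member, 5 held a library set apart from the rest by more of the range than Dixon's 95% critical value allows, where chance alone gives about 1 in 20, or 3.3. In the germline cytosolic fraction of WT, male replicate 4 had 22.9 CPM of Ryr1, where its 4 companions had 10.8 to 13 CPM, and 42.6 CPM of Ryr3 against 23.8 to 28.6 CPM. The same library had the highest summed CPM of nuclear-retained RNAs in its group, 14540 against 3501 to 6404. In the same group, male replicate 1 had 10.8 CPM of Itpr2 against 14.4 to 15.7 CPM. In the germline synaptic fraction of HET, female replicate 1 had 15.8 CPM of Ryr3 against 8.64 to 11.4 CPM in the other 6 libraries. There, female replicate 3 had 582 CPM of Itpr1 against 784 to 928 CPM.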

How the results depend on the processing

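Over 2144 recomputed values of the members, 2024 kept their sign and their side of the threshold. With the same sign, 18 lost the threshold and 2 gained it. A further 7 turned sign where the main or the alternative fit called the member, and 93 turned sign where neither did. The 300 values given as descriptions all moved by less than the spread within genotypes. For the germline interaction this is a weak check, because that spread includes the 3 doubtful animals. The SD of log2 ratios in germline WT was 1.39 for Ryr1 and 1.66 for Ryr3, and 0.48 and 0.63 without those animals. The interaction value of Ryr1 ran from -1.44 to -0.39 over the alternatives. With scaling by total counts, chosen after seeing the data, synaptic against nuclear Itpr2 turned to -0.26 in germline WT, -0.18 in germline HET, -0.2 in conditional WT and -0.18 in conditional HET, and Ryr2 to -0.48, -0.49 and -0.05 in conditional WT, HET and HOM. With no filter on low counts 1 member instead of 0 was called in conditional nuclear HOM (Itpr3), where 0.948% of 36504 genes were called against 0.0%. The members called between germline WT fractions were 3 with no filter (34.3% of 38354 genes called; Ryr3 and Itpr2 lost) and 2 with no replicate block (63% of 21515 genes; Ryr1, Ryr3 and Itpr2 lost), against 5 (64.5%), and 3 to 5 when 1 animal was left out; the cause was not tested. With the replicate number as a block, 0 members were called in any tested genotype comparison, while 1.18% of 18454 genes were called in germline cytosol (0.0% without the block), 0.205% of 17074 in germline cortex (0.328%) and 0 genes in the others. Same-numbered libraries had correlated deviations over 0.1 in 8 of 14 germline cortex pairs (-0.44 to 0.7). The counts were 4 of 8 pairs in conditional nuclei, 4 of 12 in conditional synaptosomes and 2 of 6 in conditional cortex. In germline nuclei, synaptosomes and cytosol they were 2 of 9, 2 of 7 and 1 of 3. The deviations were from the mean of genotype and sex, so the batch label, which same-numbered germline cortex libraries share, remained in them. These values do not settle whether the numbers pair libraries, and they were not used as pairs in the main fits. Without the animal of 0 Cre counts or that of 2 labels, the number of members called was the same in each comparison. Depth was sufficient for at least 17 counts of each member in each library, and low counts limit Itpr3 most.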
